A study of Homo sapiens with 17 samples.

Results

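The enzymes that place methyl groups on histones and DNA, and those that remove them, were followed in acute myeloid leukemia (AML) cell lines treated by D9. A gene was a member if its annotated symbol began with KMT, KDM, SETD, SUV, NSD, PRMT, EHMT, DNMT or TET and a number, or was DOT1L or CARM1. EZH1 and EZH2 were not included. These names covered 96 probes of 58 genes, out of 20046 genes named on the array. Of the 96 probes, 83 probes of 53 genes had a mean signal above the filter on dim probes and were tested. The genes without a tested probe were KMT2D, SETD7, TET2, PRMT8 and the antisense gene KMT2E-AS1, and TET3, KDM5A and ASH1L were not analysed here. A further member, KDM7A-DT, is a divergent transcript beside KDM7A and is no enzyme.

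D9 is an analog of 3-deazaneplanocin A (DZNep), an inhibitor of S-adenosylhomocysteine hydrolase. Messenger RNA was measured on Illumina HT-12 bead arrays after 48 h. Cells received 1 µM D9, 5 µM D9 or were left untreated. The series describes MOLM-14, MV-4-11 and TF-1 as D9-sensitive lines and KG-1a, Mono-Mac-1 and THP-1 as D9-resistant lines. TF-1 cells were grown with IL-3, a growth factor that the other lines did not receive. There was 1 array per line and condition and none for MV-4-11 at 5 µM, which gave 11 treated and 6 untreated arrays. The cell line was therefore the replicate, with 3 lines in each class, and a p-value measures the spread between these lines. In bulk cultures, fewer cells that express a gene and less RNA per cell cannot be told apart.

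Histone methyltransferases, called writers here, transfer the methyl group of S-adenosylmethionine to lysine or arginine residues and release S-adenosylhomocysteine. S-adenosylhomocysteine hydrolase clears this product, which otherwise inhibits the transferases. Lysine demethylases, called erasers here, reverse the mark through flavin chemistry (KDM1A and KDM1B) or through iron and 2-oxoglutarate (the other KDM families). Methylation of H3K4 and H3K36 is found at transcribed genes, while H3K9, H3K27 and H4K20 methylation is linked to repression. DNA methyltransferases methylate cytosine, and TET enzymes oxidize the methylated base. Several of these genes are mutated or rearranged in AML, among them KMT2A, DNMT3A and TET2.

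The untreated arrays were first compared with markers of blood lineages. SPI1, the myeloid transcription factor PU.1, had normalized log2 signals of 8.92 in TF-1, 11.67 in MOLM-14, 10.79 in MV-4-11, 10.81 in THP-1, 10.21 in Mono-Mac-1 and 6.40 in KG-1a. The KG-1a level was close to the filter of 6.16, and in this line LYZ, a myeloid lysozyme, was below it at 6.03. The T cell gene CD3D reached 12.73 in KG-1a and 5.87 to 6.48 in the other lines, while the CD3E probe gave 6.29 in KG-1a. The stem cell marker CD34 was high in TF-1 (11.63) and KG-1a (13.20). The epithelial marker KRT19 stayed at or under the filter in all lines (6.02 to 6.15). EPCAM, also epithelial, was above it in 3 lines (at most 6.32) and MS4A1 of B cells in 5 (at most 6.36). Above it in all 6 lines were CD79A of B cells (6.55 to 6.89) and PECAM1 (7.73 to 10.28), a marker not specific to endothelium. So were COL1A1 of fibroblasts (6.18 to 6.62) and ALB of liver (6.35 to 7.83). The leukocyte gene PTPRC was above it in only 3 lines (5.99 to 6.41). MPO, a myeloid gene, was 6.61 in KG-1a and 6.10 in TF-1. The lowest raw signal of an array was 30.2 to 35.4 in TF-1 and THP-1 and 0 to 14.4 in the other 4 lines, and each of these sets held lines of both classes.

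The 2 member genes with named values that passed the test, KDM1A and KDM5B, both encode erasers of H3K4 methylation. Their RefSeq promoters (GRCh38.p14, 250 bases before to 50 bases after the transcription start) are shown because the results turn on these genes. Capitals mark GGGCGG, the GC box bound by Sp1 family factors, and TTGGCGC, a sequence of the type bound by E2F factors, on either strand. KDM1A lies on the plus strand (chr1:23019218-23019517) and KDM5B on the minus strand (chr1:202808372-202808671).
KDM1A: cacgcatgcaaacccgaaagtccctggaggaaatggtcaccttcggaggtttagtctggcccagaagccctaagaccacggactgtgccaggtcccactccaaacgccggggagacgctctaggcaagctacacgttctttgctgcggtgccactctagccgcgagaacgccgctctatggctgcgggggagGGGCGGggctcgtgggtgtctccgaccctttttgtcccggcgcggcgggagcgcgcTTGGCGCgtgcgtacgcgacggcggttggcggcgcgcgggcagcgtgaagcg
KDM5B: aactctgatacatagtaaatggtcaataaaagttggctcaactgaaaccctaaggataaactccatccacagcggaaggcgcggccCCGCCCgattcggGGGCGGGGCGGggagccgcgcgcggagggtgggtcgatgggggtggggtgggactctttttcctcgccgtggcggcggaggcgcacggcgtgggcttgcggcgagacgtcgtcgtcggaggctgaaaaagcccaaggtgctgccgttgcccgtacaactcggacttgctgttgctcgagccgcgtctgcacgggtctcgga
The KDM1A window held 1 GGGCGG and 1 TTGGCGC, which do not overlap. The KDM5B window held 3 GGGCGG, of which a pair overlap, and no TTGGCGC. Over 35116 promoters of the same length, 45% held GGGCGG and 3.04% held TTGGCGC. A promoter was found for 54 of the 58 members. Among these, GGGCGG was present in 42 (77.8%) and TTGGCGC in 4 (7.41%), namely KDM1A, KMT5A, PRMT3 and SETD6. TTCCCGC and CCAAT were also searched. They were present in 4 (7.41%) and 20 (37%) of these members, against 6.55% and 34.6% of all promoters. Neither KDM1A nor KDM5B held them. The windows of KDM1A and KDM5B held 36 and 34 CpG dinucleotides, more than 87.3% and 84.4% of all promoters. These matches describe the sequence and no factor binding was measured here.

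A line's response was taken as the average log2 signal over its D9 arrays less that of its untreated array, and the mean of the 6 responses was tested with limma. A probe was called at a Benjamini-Hochberg adjusted p below 0.10 over all 28394 tested probes. In this test 5.59% of all tested probes were called, 2.78% as higher and 2.81% as lower after D9. Of the 83 member probes, 3 were called (3.61%), 2 higher and 1 lower, which is no larger a share than among all probes. At an unadjusted p under 0.05 there were 11 member probes (13.3%), against 19.1% of all probes. The called members were KDM1A, KDM5B and KDM5D, a Y-linked gene that is counted here without values.

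KDM1A (LSD1), the flavin-dependent eraser of H3K4 mono- and dimethylation, was downregulated by D9. Its normalized log2 signals at 0, 1 and 5 µM were 10.41, 9.96 and 10.15 in TF-1, 10.93, 10.51 and 10.33 in MOLM-14, 10.16, 10.12 and 9.68 in THP-1, 10.38, 9.95 and 9.96 in Mono-Mac-1, and 10.19, 10.02 and 10.03 in KG-1a. In MV-4-11 it was 9.55 at 1 µM and 9.88 untreated. Every treated array thus lay below the untreated array of its own line, 11 of 11, although treated levels (9.55 to 10.51) and untreated levels (9.88 to 10.93) overlap when lines are pooled. Both doses of a line share its untreated array, so such counts, here and below, do not hold independent comparisons. The mean change over 6 lines was -0.34 ± 0.06 (SE; adjusted p = 0.044; 95% interval -0.48 to -0.20), a fold of 0.79. By line it was -0.36 in TF-1, -0.33 in MV-4-11 and -0.50 in MOLM-14, against -0.25 in THP-1, -0.43 in Mono-Mac-1 and -0.17 in KG-1a. The call was lost without TF-1 (adjusted p = 0.107) and without Mono-Mac-1 (adjusted p = 0.161), the range over all alternatives being 0.00804 to 1.

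KDM5B (JARID1B), which removes methyl groups from trimethylated H3K4, was upregulated by D9. At 0, 1 and 5 µM its log2 signals were 9.44, 9.57 and 9.79 in TF-1, 9.49, 9.55 and 9.79 in MOLM-14, 10.44, 10.84 and 10.77 in THP-1, 9.13, 9.43 and 9.58 in Mono-Mac-1, and 10.12, 10.31 and 10.63 in KG-1a. In MV-4-11 it was 10.36 at 1 µM and 9.66 untreated, the largest difference in any line. All 11 treated arrays lay above their untreated array, while the pooled treated (9.43 to 10.84) and untreated levels (9.13 to 10.44) overlap. The mean change was 0.37 ± 0.08 (SE; adjusted p = 0.0644; 95% interval 0.18 to 0.55), a fold of 1.29. The sensitive lines averaged 0.37 ± 0.11 and the resistant lines 0.36 ± 0.11 (adjusted p = 0.26 and 0.292). The value was 0.28 without MV-4-11 and the adjusted p was 0.103. Leaving out any line other than MOLM-14 ended the call (adjusted p up to 0.2), and the range over all alternatives was 0.01 to 1.

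**Figure D1:**
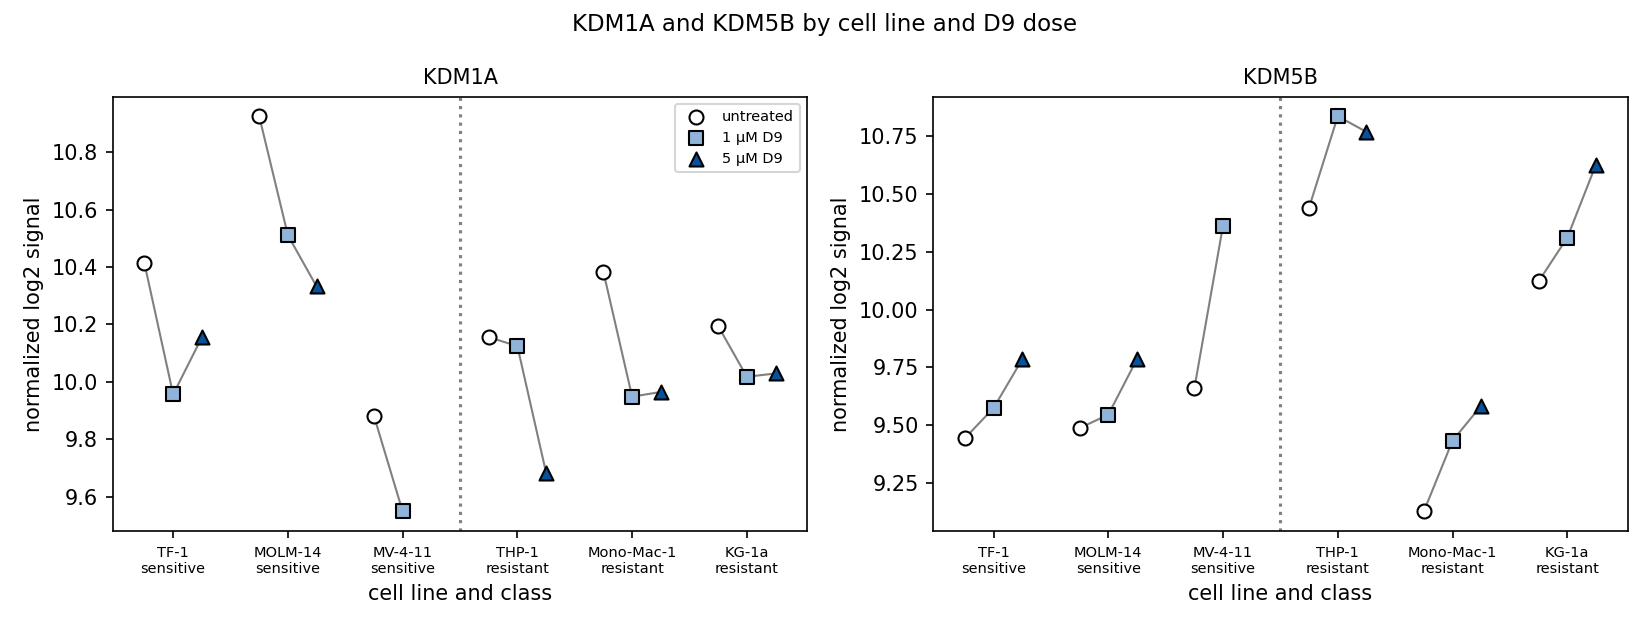
Normalized log2 signal (y axis, starting above 0) of KDM1A and KDM5B in each cell line (x axis), untreated and at 1 and 5 µM D9, 1 array per point. All 11 treated KDM1A points lie below and all 11 treated KDM5B points above the untreated point of their line.

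Of the other H3K4 erasers, KDM5D was called and is given without values, while KDM5C and KDM1B did not pass the test. KDM5C had its largest change in MV-4-11, with log2 signals of 7.07 at 1 µM and 6.28 untreated, a change of 0.79, while it was -0.32 in MOLM-14 and -0.37 in THP-1. The mean of KDM5C over 6 lines was 0.04 ± 0.14 (adjusted p = 0.92). KDM1B, the second flavin-dependent eraser, was above 0 in TF-1 (0.28), MV-4-11 (0.47) and KG-1a (0.37) and below 0 in the other 3 lines. The H3K4 writers had small effects. None of the 5 tested genes (KMT2A, KMT2B, KMT2C, SETD1A and SETD1B) was called, and their mean changes ran from -0.04 to 0.16. KMT2A (MLL1), which is fused to other genes in many leukemias, changed by 0.36 in TF-1, 0.33 in MV-4-11 and 0.29 in MOLM-14, against -0.24 in THP-1, 0.15 in Mono-Mac-1 and 0.09 in KG-1a. Its mean was 0.16 ± 0.07 (adjusted p = 0.247). Whether this probe reads fused KMT2A transcripts was not tested. SETD1A was highest in KG-1a, with a change of 0.56.

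Among the H3K9 writers, SUV39H1, a heterochromatin methyltransferase, had the lowest change of any member in any array by the brightest probes. In MV-4-11 its log2 signal was 8.83 at 1 µM and 10.51 untreated, a change of -1.68, where the central 95% of all genes on that array ended at -0.90. In Mono-Mac-1 it was 9.54, 9.01 and 8.72 at 0, 1 and 5 µM. The other lines changed by 0.09 (TF-1), -0.19 (MOLM-14), 0.15 (THP-1) and -0.18 (KG-1a). The mean over 6 lines, -0.41 ± 0.22, did not pass the test (adjusted p = 0.375). SUV39H2, its paralog, gave -0.04 ± 0.07, EHMT1 (GLP) 0.14 ± 0.08 and EHMT2 (G9a) 0.09 ± 0.10 (adjusted p = 0.834, 0.387 and 0.703). The other 2 tested EHMT1 probes and the second EHMT2 probe had means between -0.01 and 0.03.

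Of the 7 tested H3K9 erasers none was called. KDM3A, a demethylase of mono- and dimethylated H3K9, had log2 signals of 8.33, 8.97 and 8.84 at 0, 1 and 5 µM in TF-1 and 8.31, 8.63 and 8.97 in MOLM-14. In MV-4-11 it was 9.18 at 1 µM and 8.82 untreated. Its changes were 0.57, 0.49 and 0.35 in these sensitive lines, against -0.33 in THP-1, 0.09 in Mono-Mac-1 and 0.25 in KG-1a. The mean was 0.24 ± 0.08 (adjusted p = 0.176). KDM4A (JMJD2A), which acts on trimethylated H3K9 and H3K36, changed by -0.19 in TF-1, -0.22 in MV-4-11 and -0.37 in MOLM-14, against 0.11 in THP-1, 0.16 in Mono-Mac-1 and 0.22 in KG-1a, so that its mean was -0.05 ± 0.06. KDM3B, KDM4B, KDM4C, KDM4D and KDM7A had means between -0.10 and 0.13. The H3K27 erasers KDM6A (UTX) and KDM6B (JMJD3) gave -0.05 ± 0.09 and 0.05 ± 0.08. KDM6A was -0.27 in TF-1 and -0.35 in THP-1 but 0.30 in MOLM-14.

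SETD2, the writer of H3K36 trimethylation, had the smallest p of any member after the called probes. Its log2 signals at 0, 1 and 5 µM were 9.01, 9.15 and 9.64 in TF-1, 9.16, 9.53 and 9.71 in MOLM-14, 9.96, 10.50 and 10.47 in THP-1, 9.35, 9.86 and 10.14 in Mono-Mac-1, and 9.92, 9.93 and 10.24 in KG-1a. MV-4-11 was the exception, with 9.10 at 1 µM and 9.22 untreated. Thus 10 of 11 treated arrays lay above their untreated array. The mean change of 0.34 ± 0.10 did not pass the test (adjusted p = 0.117). It did pass without MV-4-11 (0.43, adjusted p = 0.095) and with the 5 µM arrays alone (0.56, adjusted p = 0.0465). The NSD enzymes, writers of H3K36 dimethylation, had mean changes below 0 by their brightest probes, none of them called. NSD1 changed by -0.17 ± 0.06 (adjusted p = 0.157), with 9 of 11 arrays below the untreated level. NSD2 gave -0.03 ± 0.09, yet a dimmer NSD2 probe (ILMN_1766112) was at 0.54 in TF-1 and 0.50 in KG-1a. NSD3 gave -0.04 ± 0.06. The H3K36 erasers KDM2A and KDM2B gave 0.05 ± 0.06 and -0.15 ± 0.08, and the KDM2B probe was lowest in Mono-Mac-1 (-0.47).

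DOT1L, the only known H3K79 methyltransferase and a cofactor of KMT2A fusion proteins, had a mean of 0.00 ± 0.10. Its treated arrays spread widely around this mean. At 0, 1 and 5 µM it was 6.85, 7.63 and 6.86 in KG-1a and 7.43, 7.11 and 6.80 in MOLM-14, so that the KG-1a change was 0.78 at 1 µM and 0.01 at 5 µM. The H4K20 writers KMT5A (SET8), KMT5B (SUV4-20H1) and KMT5C (SUV4-20H2) had means of -0.02 ± 0.07, -0.15 ± 0.15 and -0.04 ± 0.09 (adjusted p = 0.924, 0.67 and 0.857). KMT5B was 0.33 and 0.39 in TF-1 and THP-1 and -0.60, -0.47 and -0.37 in MV-4-11, Mono-Mac-1 and KG-1a. A dimmer KMT5B probe (ILMN_1692107) had the opposite sign in those last 3 lines, at 0.51, 0.41 and 0.27. Such disagreement was common. Of 17 genes with several tested probes, 10 had means of both signs.

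None of the arginine writers was called. PRMT1, the main source of asymmetric arginine dimethylation, had log2 signals of 9.69, 9.18 and 9.10 at 0, 1 and 5 µM in TF-1 and 10.10, 9.86 and 9.57 in KG-1a. It was below the untreated level in 9 of 11 treated arrays, both exceptions being THP-1. The mean change was -0.28 ± 0.08 (adjusted p = 0.127). PRMT3, an arginine methyltransferase of ribosomal protein, was lowest in Mono-Mac-1, with 9.98, 9.24 and 9.06 at 0, 1 and 5 µM. Over 6 lines it averaged -0.27 ± 0.11 (adjusted p = 0.23). CARM1 (PRMT4), a coactivator of transcription, gave -0.19 ± 0.10 (adjusted p = 0.384), with 0.40 in THP-1 and -0.13 to -0.54 in the other 5 lines. PRMT5, the main writer of symmetric arginine dimethylation, gave -0.04 ± 0.08. Its brightest probe was 0.22 in Mono-Mac-1, where its other probe was -0.28. Of the 8 arginine writers tested, 2 had a mean above 0 and 6 below, with a median of -0.07.

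DNMT1, the maintenance DNA methyltransferase that follows the replication fork, differed in sign between lines. At 0, 1 and 5 µM its log2 signals were 12.71, 12.05 and 11.80 in Mono-Mac-1 and 11.89, 12.09 and 12.42 in MOLM-14. In MV-4-11 it was 12.11 at 1 µM and 12.81 untreated. The changes in Mono-Mac-1, MV-4-11 and MOLM-14 were -0.78, -0.70 and 0.37. In TF-1, THP-1 and KG-1a it changed by -0.03, -0.18 and -0.17. The mean was -0.25 ± 0.14 (adjusted p = 0.409). The de novo methyltransferases DNMT3A and DNMT3B gave 0.06 ± 0.06 and -0.02 ± 0.11, and the brightest DNMT3A probe was close to the filter in every array (at most 6.49). DNMT3B was 10.60, 11.16 and 11.09 at 0, 1 and 5 µM in KG-1a, a change of 0.53, while its other 3 tested probes were -0.09 to -0.31 in that line. TET1, an oxidase of methylated cytosine, was below 0 in 6 of 6 lines, with a mean of -0.18 ± 0.07 (adjusted p = 0.192). Its other 2 tested probes averaged 0.01.

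SUV39H1, DNMT1 and PRMT3 were lowest in MV-4-11 or Mono-Mac-1, and these lines also had the lowest median changes of proliferation genes. The median change of 28 tested S phase genes was 0.05 in TF-1, -0.11 in MOLM-14, -1.44 in MV-4-11, -0.18 in THP-1, -0.87 in Mono-Mac-1 and -0.11 in KG-1a. The median of 18 mitosis genes was 0.20, -0.01, -1.48, -0.19, -0.72 and -0.14 in the same order of lines. Over 6 lines 1 S phase gene was called as lower, PRIM1, a primase subunit (-0.81 ± 0.18, adjusted p = 0.07), and no mitosis gene. In the same fit 7.28% of all tested genes were called. KDM1A changed by -0.43 in Mono-Mac-1, by -0.33 in MV-4-11 and by -0.17 to -0.50 in the other lines. The part of proliferation in the SUV39H1, DNMT1, PRMT3 and KDM1A values was not tested. Without MV-4-11 and Mono-Mac-1, no probe of any gene was called by limma over the remaining 4 lines (3323 of 28394 had an unadjusted p under 0.05, 7 of them member probes), and the means of KDM1A and KDM5B were -0.32 and 0.28 (adjusted p = 0.243 and 0.267).

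**Figure D2:**
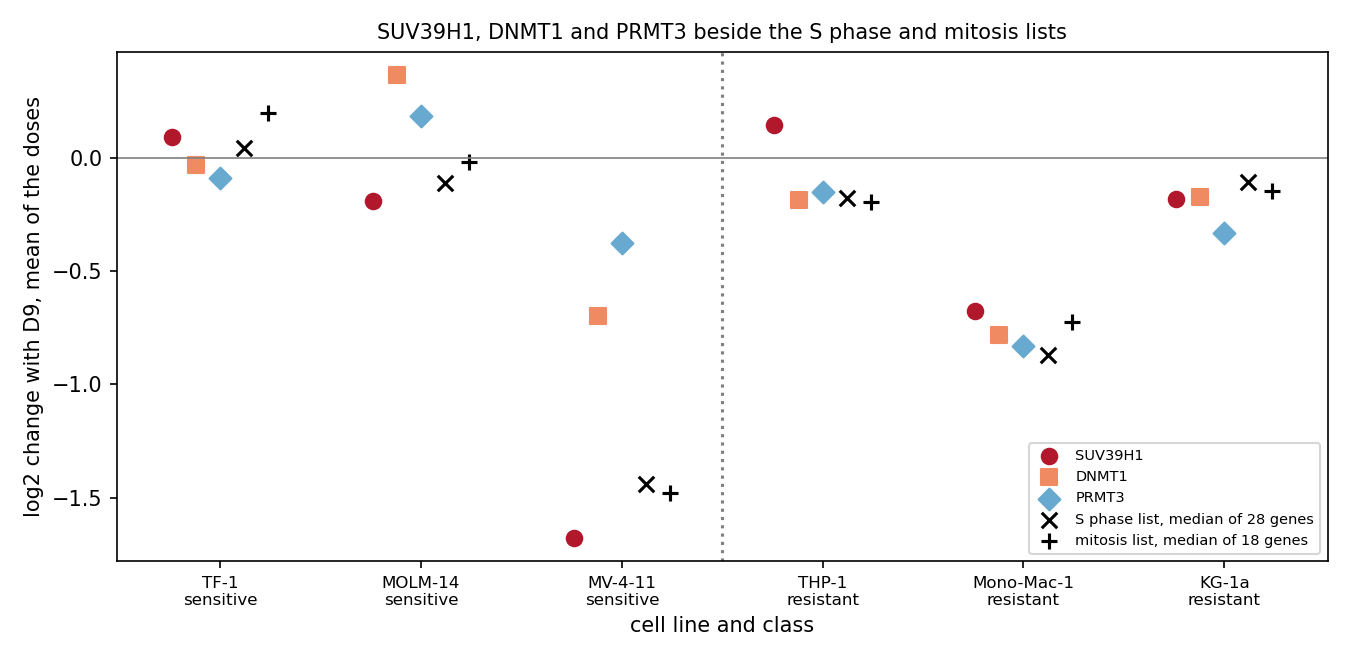
Log2 change with D9, mean of the doses (y axis), of SUV39H1, DNMT1 and PRMT3 in each cell line (x axis), beside the medians of 28 S phase genes and 18 mitosis genes. MV-4-11, measured at 1 µM only, and Mono-Mac-1 hold the lowest list medians, and SUV39H1 reaches -1.68 in MV-4-11.

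Writers and erasers were then compared as groups by the brightest tested probe of each gene. The 28 writers had a median change of -0.03 over 6 lines, 11 above 0 and 17 below, with none called. The 17 erasers had a median of 0.04, 9 above 0 and 8 below, with 2 called as higher and 1 as lower. The median of all 14337 tested genes was 0.00, with 51.2% above 0, and 553 were called as higher and 491 as lower (7.28%). By line, the writer and eraser medians were 0.07 and -0.09 in TF-1, -0.02 and -0.15 in MOLM-14, -0.13 and 0.12 in MV-4-11, -0.01 and 0.05 in THP-1, -0.06 and 0.01 in Mono-Mac-1, and -0.05 and 0.09 in KG-1a. Writers minus erasers was thus above 0 in TF-1 (0.16) and MOLM-14 (0.13) and below 0 in MV-4-11 (-0.24), KG-1a (-0.15), Mono-Mac-1 (-0.06) and THP-1 (-0.05). The difference of the medians over 6 lines was -0.07, which is smaller than the spread between lines, and it was 0.03 without MV-4-11.

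**Figure D3:**
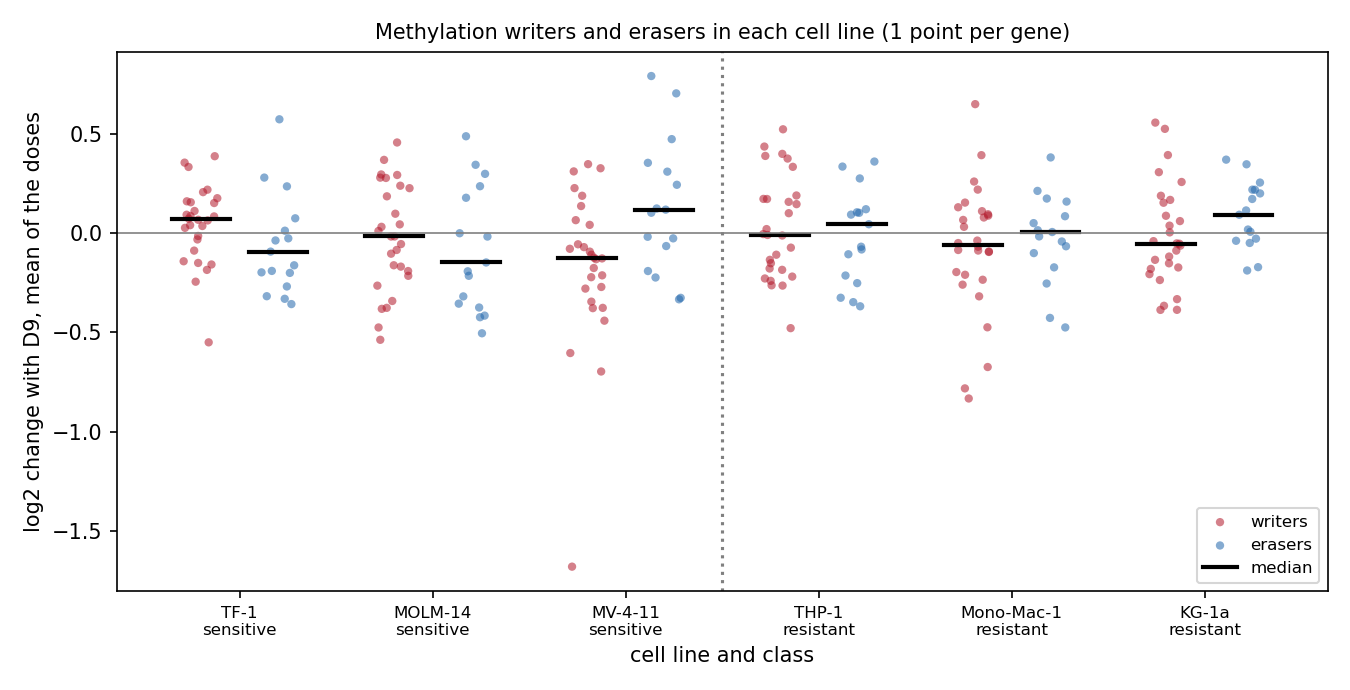
Log2 change with D9, mean of the doses (y axis), of 28 writer genes and 16 eraser genes in each cell line (x axis), 1 point per gene. Black bars are the medians, those of erasers over 17 genes with the Y-linked gene that is not drawn, and they lie between -0.15 and 0.12.

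Most members stayed within the range of other genes in each treated array. The number of the 53 genes outside the central 95% of all genes of an array was 0 to 2 on the low side and 0 to 3 on the high side. In TF-1 at 1 µM the highest changes were KDM3A (0.64) and KDM1B (0.45) and the lowest PRMT1 (-0.51) and PRMT3 (-0.47). At 5 µM in TF-1 they were SETD2 (0.64) and KDM3A (0.51), against PRMT1 (-0.59) and KDM4D (-0.38). The same arginine writer was therefore lowest at both doses of this line. MOLM-14 at 1 µM had KDM7A-DT (0.59) and SETD2 (0.37) on top and SETD6 (-0.44), a methyltransferase of the NF-kappaB subunit RELA, and KDM4D (-0.42) at the bottom. At 5 µM in MOLM-14, DNMT3L (0.81), a catalytically inactive partner of the de novo methyltransferases, and KDM3A (0.66) were highest, and CARM1 (-0.67) and DOT1L (-0.63) lowest. In untreated MOLM-14 the DNMT3L probe was under the filter (6.12) and that of KDM7A-DT close to it (6.20). Another DNMT3L probe, too dim to be tested, changed by 0.29 at 5 µM in this line. MV-4-11 at 1 µM had KDM5C (0.79) and KDM5B (0.70) on top and SUV39H1 (-1.68) and DNMT1 (-0.70) at the bottom. KDM3A was among the 2 highest members in 3 of 11 arrays, all of them of sensitive lines.

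Among the resistant lines, in THP-1 at 1 µM, EHMT1 (0.63) and SETD2 (0.54) were highest and KDM3A (-0.38) and SUV39H2 (-0.37) lowest. At 5 µM in THP-1, SETD4 (0.68), whose target is unclear, and KMT5B (0.51) were highest, and PRMT2 (-0.69) and KDM5C (-0.54) lowest. Mono-Mac-1 had SETD2 on top at 1 µM (0.51) and 5 µM (0.79), followed by PRMT5 (0.37) and KMT2C (0.51), and PRMT3 (-0.75 and -0.92) and DNMT1 (-0.66 and -0.91) at the bottom of both arrays. The order of this line was thus the same at its lower end at both doses, which share an untreated array. KG-1a at 1 µM had DOT1L (0.78) and DNMT3B (0.56) on top and KMT5B (-0.51) and KMT5C (-0.41) at the bottom. At 5 µM in KG-1a, SETD1A (0.61) and KDM5B (0.50) were highest, and PRMT1 (-0.53) and PRMT3 (-0.52) lowest. SETD2 was among the 2 highest members in 5 of 11 arrays, and PRMT3 among the 2 lowest in 4.

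**Figure D4:**
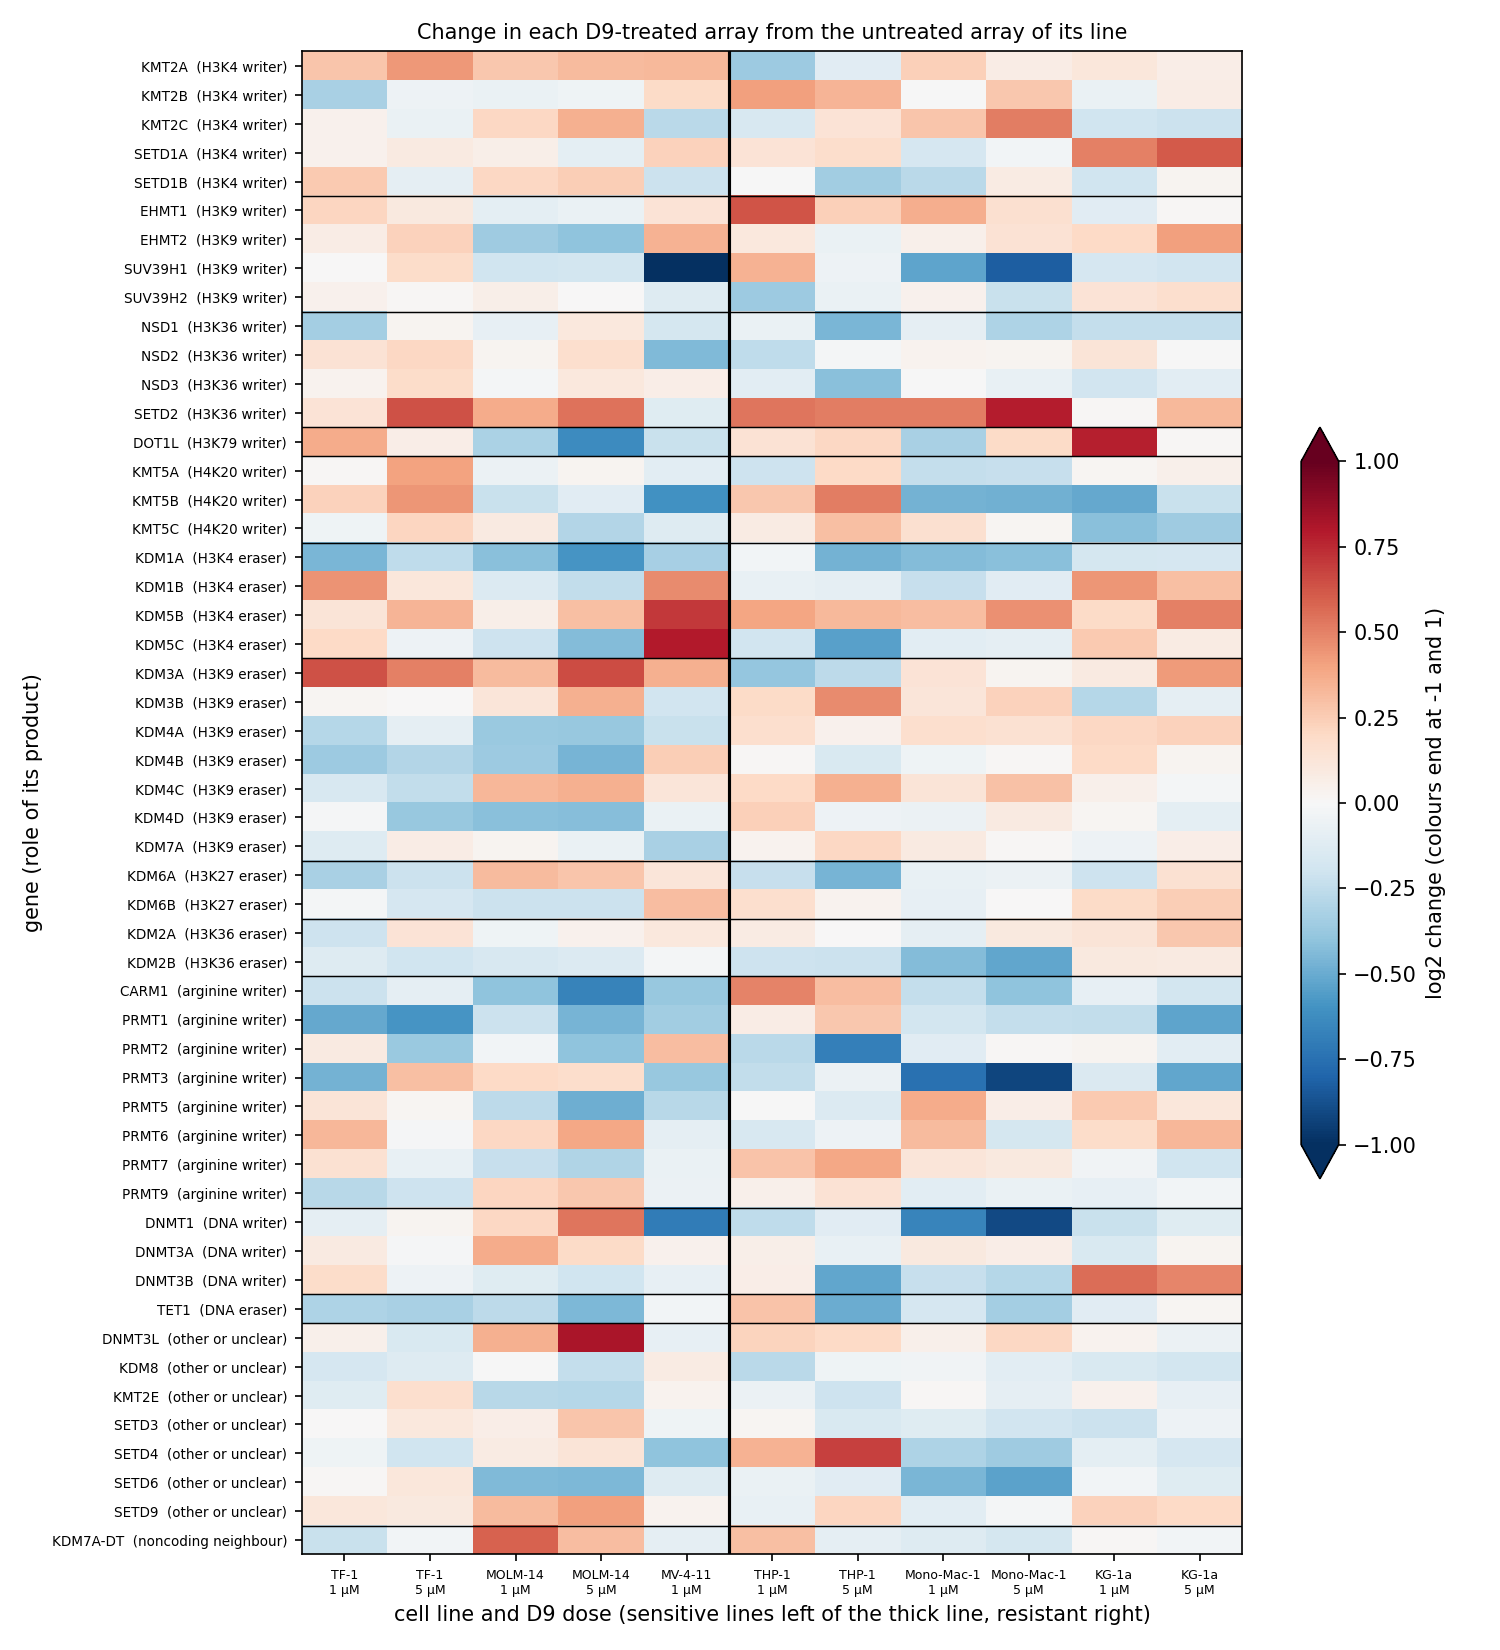
Log2 change of 52 member genes (rows, brightest tested probe, grouped by the role of the product) in 11 D9-treated arrays (columns) from the untreated array of the line. KDM1A is below 0 (blue) and KDM5B above 0 (red) in all columns. The colour is faint for KDM1A in THP-1 (-0.03) and KDM5B in MOLM-14 (0.06), both at 1 µM. SUV39H1 in MV-4-11 (-1.68) lies beyond the end of the colour scale.

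Sensitive and resistant lines were compared to ask which response goes with sensitivity to D9. In the sensitive lines 0.0317% of all tested probes were called by limma and 0 of 83 member probes, with 11 members (13.3%) at an unadjusted p under 0.05, against 12.4% of all probes. In the resistant lines 0.155% of all probes and 0 members were called, with 6 (7.23%) at an unadjusted p under 0.05, against 11.8% of all probes. The members with the smallest p among those higher in the sensitive lines were KDM3A (0.47 ± 0.12), KMT2A (0.33 ± 0.10) and KDM5B (0.37 ± 0.11). Those lower were KDM1A (-0.40 ± 0.09), PRMT1 (-0.41 ± 0.12) and KDM4A (-0.26 ± 0.08). In the resistant lines they were KDM5B (0.36 ± 0.11), SETD2 (0.45 ± 0.14) and a dimmer DNMT3A probe (0.24 ± 0.09) as higher, and KDM1A (-0.28 ± 0.09), NSD1 (-0.23 ± 0.08) and PRMT3 (-0.44 ± 0.15) as lower. The smallest adjusted p of a member was 0.184 in the sensitive and 0.29 in the resistant lines.

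The difference in effect between the classes, sensitive minus resistant, was not called for any member, nor for any other probe (0% of all tested probes). At an unadjusted p under 0.05 limma gave 4 member probes (4.82%), against 2.66% of all probes. The t-test named in the study's general statistics gave 3 (3.61%), against 3.33%. For its own class comparison of arrays the study used another test, significance analysis of microarrays. It reported genes that changed in sensitive but not in resistant lines. That test was not run here. KDM4A had the smallest p, with a mean of -0.26 in sensitive lines, all of them below 0, and with all resistant lines above 0. The difference was -0.42 ± 0.11 (95% interval -0.69 to -0.16, adjusted p = 0.999). The differences of KDM3A and KMT2A were 0.47 ± 0.17 and 0.32 ± 0.14. A dimmer KMT2E probe (ILMN_2344988) was at 0.31 in TF-1, 0.14 in MV-4-11 and 0.27 in MOLM-14, against -0.34 in THP-1, -0.16 in Mono-Mac-1 and -0.07 in KG-1a. KMT2E (MLL5) is a chromatin reader of the family without established writer activity, and its brightest probe did not split this way. PRMT5 (-0.31 ± 0.16) and KDM4D (-0.25 ± 0.13) had the next smallest p on the lower side. With 3 lines in each class, intervals of single genes were wide and do not show that the classes responded alike.

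The step from 1 to 5 µM was tested in the 5 lines with both doses. It called 0.546% of all tested probes and 0 of 83 member probes, with 14 members (16.9%) at an unadjusted p under 0.05, against 11.4% of all probes. The smallest p among members that were higher at 5 µM belonged to SETD2 (0.25 ± 0.08, adjusted p = 0.244) and to a pair of KMT5B probes (0.25 ± 0.09 and 0.17 ± 0.07). In the other direction, PRMT2 changed by -0.25 ± 0.09 in its brightest probe and -0.20 ± 0.07 in a dimmer probe, and PRMT5 by -0.18 ± 0.06, with adjusted p of 0.253 to 0.291. SETD2 was called when THP-1 was left out (0.31, adjusted p = 0.0996). In THP-1 its 5 µM signal of 10.47 was close to the 10.50 at 1 µM.

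In untreated cells the lines differed widely in some of these enzymes. DNMT3B had log2 signals of 9.13 in TF-1, 7.84 in MOLM-14, 7.31 in MV-4-11, 8.08 in THP-1, 8.37 in Mono-Mac-1 and 10.60 in KG-1a. This range was 9.79-fold by the brightest probe and 17.7-fold and 14.6-fold by its next probes, and KG-1a was highest by each of them. KDM2B, the H3K36 eraser that recruits a variant Polycomb complex to CpG islands, was 9.91 in TF-1 and 10.91 to 12.05 in the other lines. KMT2A was 6.88 to 7.21 in MOLM-14, Mono-Mac-1 and THP-1 and 8.11 to 9.01 in TF-1, MV-4-11 and KG-1a, so each of these sets held lines of both classes. By their brightest probes, KMT5B was lowest in THP-1 (6.71) and PRMT6, an arginine writer of H3R2, lowest in TF-1 (8.23). Both were highest in KG-1a (8.77 and 10.27). A dimmer KMT5B probe (ILMN_1669598) was instead lowest in MOLM-14 (6.36) and highest in TF-1 (8.42). SETD9, whose target is unclear, was lowest in TF-1 (6.38) and highest in MV-4-11 (8.69). DNMT1 was bright in all lines (11.89 to 13.18), and DNMT3A, EHMT1, KDM6B and NSD2 were dim.

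**Figure D5:**
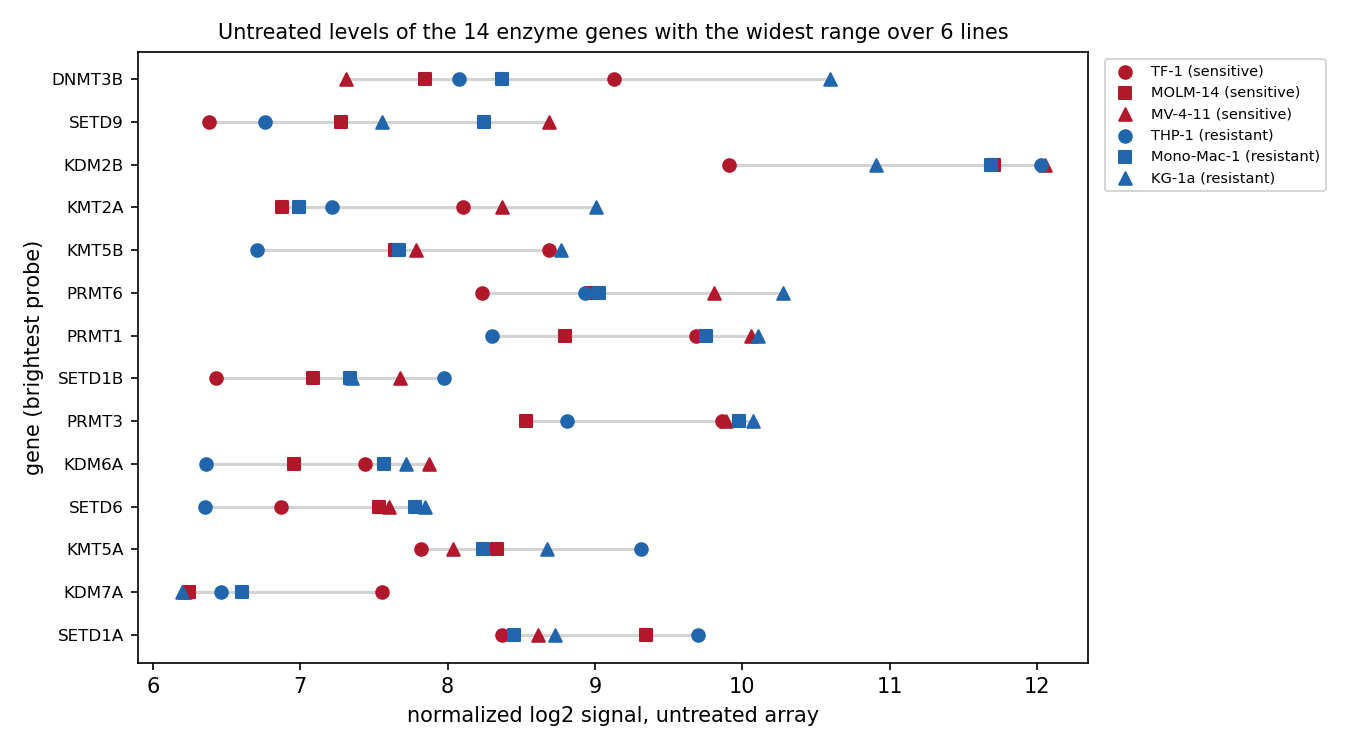
Normalized log2 signal (x axis) in the untreated array of 6 cell lines for the 14 member genes with the widest range over lines (rows), sensitive lines in red and resistant lines in blue. DNMT3B spans 7.31 to 10.60, and the red and blue points of all 14 genes overlap.

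A range of more than 1 log2 unit between untreated lines was seen in 31 of 53 member genes (58.5%), close to the 54.6% of all tested genes, and the median range was 1.07 against 1.09. The untreated sensitive lines minus the untreated resistant lines gave no called member and no called probe at all (0%) in limma. At an unadjusted p under 0.05 there was 1 member probe (1.2%), against 2.11% of all probes. That probe was SETD2, with 9.01 in TF-1, 9.22 in MV-4-11 and 9.16 in MOLM-14, against 9.96 in THP-1, 9.35 in Mono-Mac-1 and 9.92 in KG-1a. The difference was -0.61 ± 0.20 (95% interval -1.12 to -0.11, adjusted p = 1). KMT5A (-0.68 ± 0.31) and the dimmer KMT2E probe (-0.34 ± 0.16) followed on the lower side. On the higher side were CARM1 (0.36 ± 0.30), KMT2B (0.35 ± 0.33) and PRMT9 (0.23 ± 0.23).

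Genes around these enzymes were counted in the same fit over 6 lines, in which 7.28% of all 14337 tested genes were called. Of 23 genes of methyltransferase and demethylase families outside the naming rule, 20 were tested. Of these, 2 were called, both as higher and both of the PR domain family, and no enzyme activity was measured. PRDM1 (BLIMP1), a transcriptional repressor of the PR domain family, rose by 0.57 ± 0.08 (adjusted p = 0.0309), with 0.59 in TF-1, 0.68 in MV-4-11 and 0.61 in MOLM-14, against 0.75 in THP-1, 0.62 in Mono-Mac-1 and 0.16 in KG-1a. PRDM10, of the same family, rose by 0.33 ± 0.08 (adjusted p = 0.0946) and was above 0 in 6 of 6 lines. Among H3K9 writers in this list, SETDB1 was above 0 in 6 of 6 lines at 0.27 ± 0.08 but was not called (adjusted p = 0.126). SETDB2 had a mean of -0.13 ± 0.10 and PRDM2 of -0.05 ± 0.06, below 0 in 4 and 5 of 6 lines (adjusted p = 0.563 and 0.742). Of 40 subunits and readers of methylation complexes, 37 were tested and 1 was called. This was CBX5 (HP1 alpha), a reader of methylated H3K9, which fell by 0.55 ± 0.12 (adjusted p = 0.0645). CBX1 and CBX3, of the same family, gave -0.17 ± 0.07 and -0.14 ± 0.08 and were not called (adjusted p = 0.267 and 0.41). The CBX5 change was -1.33 in MV-4-11 and -0.16 to -0.52 in the other lines. In MV-4-11 SUV39H1 and the S phase median (-1.44) were also lowest. The part of proliferation in the CBX5 values was not tested.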

How the data were processed

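RNA was hybridised to HT-12 V4.0 beadchips. The authors deposited a table of raw probe intensity on a linear scale, summarised in GenomeStudio without normalization between arrays, for 17 arrays. A second deposited table holds log2 values, which could be rebuilt to within 0.000614 as log2 signal minus the 75th percentile of the array and minus the median of the probe; its array medians ran from -0.211 to 0.259, and its GeneSpring settings are not stated.

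The raw intensities were corrected with the normexp method of limma 3.58.1 in R 4.3.3 (offset 50), normalized between arrays by quantiles and log2-transformed. The filter kept 28394 of 47323 probes, those averaging above the 40th percentile (6.16). The files hold no detection p-values, so a level near 6.16 may be background. Array medians of raw signal were 53.9 to 67.4. Precision is limited by the number of arrays.

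Probe symbols came from the platform annotation, updated through gene numbers. The brightest tested probe stood for a gene. Line effects were paired by the cell line in the sample titles: untreated and 1 µM arrays of a line deviated together (correlation 0.853 to 0.942). The 6 line effects were fitted with lmFit and eBayes (4 residual degrees of freedom) and called at a Benjamini-Hochberg adjusted p below 0.10. The fit was tested on simulated data with 200 changed genes.

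Members, gene lists and roles were chosen with earlier results of these data known. Named genes were the called members of each contrast, or the 3 with the smallest p in each direction, the 2 highest and 2 lowest genes of each treated array, and a fixed list of well-known enzymes. CBX5, PRIM1, PRDM1, PRDM10 and SETDB1 and dimmer probes that differed from the brightest were added after their values were seen. Alternatives included the deposited log2 table, uncorrected signals, scaling by medians, a normexp offset of 16, no filter or the 60th percentile, a threshold of 0.05, each dose alone, no pairing, every array with its line as a block, the Student t-test of the study's methods, and leaving out lines. Promoter sequences are from RefSeq.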

Additional observations from a re-analysis of the deposited data

Results flagged for a closer look

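The D9 effect of KDM4A was below 0 in all 3 sensitive lines and above 0 in all 3 resistant lines, with a difference of -0.42 that was not called (adjusted p = 0.999). In untreated KG-1a the KDM4A level was close to the filter (6.17). KDM7A, an eraser of H3K9, split in the same way, with a difference of -0.18 (adjusted p = 0.999). Its values in TF-1, MOLM-14 and KG-1a were close to 0, however (-0.03, -0.02 and 0.01). The reverse split, with sensitive lines above 0 and resistant lines below, held for 2 other probes. These were the brightest NSD3 probe, with a difference of 0.22 (adjusted p = 0.999), and a dimmer KMT2E probe, with a difference of 0.43 (adjusted p = 0.999). Such a split between the classes was seen in 4 of 83 member probes (4.82%) and in 1.84% of all 28394 tested probes. Among the 6 line effects of each of 82 member probes (all tested ones but that of the Y-linked gene), 1 probe had a line that stood apart by Dixon's criterion. This was KDM7A in MV-4-11, at -0.33, where the other lines were between -0.03 and 0.12. In MV-4-11 the KDM7A level was close to the filter untreated (6.22) and under it at 1 µM (5.89). For normally distributed values this criterion would flag about 1 in 20 probes. Its share over all 28394 tested probes was not computed.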

How the results depend on the processing

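The calls depended on the pairing by line and on the lines included. Over 6 lines 3 member probes were called. The count was 1 at a threshold of 0.05, and 0 with the 1 µM arrays alone, without pairing by line (no replicate block), by the methods' t-test and without MV-4-11 and Mono-Mac-1, an alternative chosen after seeing the data. With every array entered and the line as a block it was 8 (9.64%, against 16% of all probes), and 6 (7.23%, against 4.12%) and 2 (2.41%, against 5.84%) in sensitive and resistant lines, where the fit over line effects called 0; arrays of a line that share an untreated array count there as separate. Leaving out each line gave 0 to 3, with 0 without TF-1 and 0 without Mono-Mac-1. For the step from 1 to 5 µM this gave 0 to 1, with 1 without THP-1. The other alternatives gave 2 to 4 called members over 6 lines, and those for the class difference and the untreated lines gave 0. By the t-test, 8 members had an unadjusted p under 0.05 over 6 lines (9.64%, against 16.1% of all probes). Over the alternatives KDM1A lay between -0.41 and -0.29 and kept its call in 13 of 19. KDM5B lay between 0.28 and 0.42 and kept its call in 9 of 19. The writer median was 0.01, and the difference of writers minus erasers 0.01, without MV-4-11 and Mono-Mac-1. No reversal of a called value occurred under these alternatives. Probes near the filter, such as those of DNMT3A and NSD2, KDM4A in KG-1a and KDM7A in MV-4-11, hold little signal over background.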
